A study of Mus musculus with 40 samples.

Results

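The acute phase protein genes are the genes of plasma proteins whose synthesis changes sharply with infection, tissue injury or inflammation. They were taken here by name, from a list that was chosen with earlier results of these data known. The 9 genes listed were Saa1, Saa2, Saa3, Orm1, Orm2, Lcn2, Hp, Hamp and Apcs. Of these, 8 had a row among the 15958 genes of the expression table, and Saa3 was not analysed here. All measurements were bulk RNA sequencing of wild-type male C57BL/6 mice that were 8 weeks old at surgery. Mice had either a sham operation or a small bowel resection (SBR), which the labels describe as removing 50% to 60% of the small bowel and which spared the duodenum and the terminal ileum. The methods of the study state a larger extent. From 3 weeks after surgery, all mice were dosed daily for 7 weeks with vehicle or, after SBR only, with WUSTL0717 at 30 mg/kg, an amide analog of the liver X receptor (LXR) agonist GW3965 and putatively restricted to the gut. LXRs are nuclear receptors that switch on genes of sterol and lipid handling. The liver (median right lobe) gave 5 sham vehicle, 8 SBR vehicle and 5 SBR WUSTL0717 libraries. The duodenum and the ileum beyond the anastomosis gave 3 sham vehicle, 4 SBR vehicle and 4 SBR WUSTL0717 libraries each, so that 18 of the 40 libraries were of liver. There was no sham group on WUSTL0717, so the drug was compared only within resected mice, and the p-values measure the spread between these libraries.

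In the acute phase response, cytokines such as IL-6, IL-1 and TNF reach hepatocytes and act through STAT3, C/EBP and NF-kB factors on the promoters of these genes. Serum amyloid A (Saa1 and Saa2) is a lipoprotein-bound protein that can rise very strongly, the orosomucoids (Orm1 and Orm2) carry small lipophilic molecules, and lipocalin 2 (Lcn2) withholds iron from bacteria by binding their siderophores. Haptoglobin (Hp) captures free hemoglobin, hepcidin (Hamp) closes the iron exporter ferroportin and also answers to BMP signals on iron stores, and serum amyloid P (Apcs) is the acute phase pentraxin of the mouse. Lcn2 is also made by neutrophils and by epithelia, so its RNA in a whole tissue need not come from hepatocytes.

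The promoters of Saa1, Saa2, Orm2 and Hamp are shown because the first 3 of these genes varied closely together from library to library in the liver, and none of their pairs with Hamp passed the test. Each is the strand of the gene read 5′ to 3′ up to the base before its first annotated exon, from RefSeq on GRCm38.p6, and capitals mark matches to TTNNGNAA (a C/EBP core) in Saa1, Saa2 and Orm2 and to TTCNNNGAA (a STAT site) and GGCGCC (a BMP element core) in Hamp.
Saa1, chr7:46742981-46743230, minus strand: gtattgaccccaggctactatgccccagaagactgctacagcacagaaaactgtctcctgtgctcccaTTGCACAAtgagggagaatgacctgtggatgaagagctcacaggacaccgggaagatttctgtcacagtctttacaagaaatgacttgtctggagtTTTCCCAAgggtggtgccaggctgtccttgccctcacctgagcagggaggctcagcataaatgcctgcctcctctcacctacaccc
Saa2, chr7:46751583-46751789, plus strand: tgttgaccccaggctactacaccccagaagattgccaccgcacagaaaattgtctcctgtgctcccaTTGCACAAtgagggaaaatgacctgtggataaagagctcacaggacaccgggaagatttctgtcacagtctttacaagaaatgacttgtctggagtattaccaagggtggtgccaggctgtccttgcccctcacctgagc
Orm2, chr4:63362199-63362448, plus strand: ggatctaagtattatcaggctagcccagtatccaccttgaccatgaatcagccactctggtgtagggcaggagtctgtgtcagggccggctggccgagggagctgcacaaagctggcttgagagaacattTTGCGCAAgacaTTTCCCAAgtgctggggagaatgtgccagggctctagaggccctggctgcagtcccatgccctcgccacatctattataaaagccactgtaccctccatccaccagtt
Hamp, chr7:30944033-30944279, minus strand: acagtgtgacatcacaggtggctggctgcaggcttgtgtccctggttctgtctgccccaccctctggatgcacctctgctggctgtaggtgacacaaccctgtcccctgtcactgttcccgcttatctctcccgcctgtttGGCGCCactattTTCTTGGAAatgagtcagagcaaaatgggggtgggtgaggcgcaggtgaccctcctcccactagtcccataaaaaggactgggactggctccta

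Both strands of the promoter windows, 250 bases before to 50 after the start, were searched with 5 motifs. TTNNGNAA starts at -182 (TTGCACAA) and -86 (TTTCCCAA) in Saa1, at -140 (TTGCACAA) in Saa2, and at -120 (TTGCGCAA) and -108 (TTTCCCAA) in Orm2, counted back from the end of each printed sequence. Apart from TTGCGCAA, which reads the same on both strands, these matches are on the strand opposite the gene and are given as the gene's strand reads there. It is a loose motif, found in 40.7% of the 32851 promoters of the same length. The Saa1 and Saa2 windows are 94.7% identical over 206 aligned bases, and Saa2 has no second match. The Hamp window holds GGCGCC at -106 (in 11.9% of promoters) and TTCTTGGAA at -94 (TTCNNNGAA, in 8.3%), and none of the matches given for these 4 genes overlaps another. Apcs, counted from the RefSeq start, holds TTCTAGGAA at -244 and, on the other strand, CTGGGAA (the type 2 IL-6 element, in 11.1% of promoters) at -129 and -52, and Lcn2 holds TTNNGNAA on the other strand, read as TTGCTCAA, in a window that lies inside the annotated gene. GGANTTTCC, an NF-kB core present in 1.25% of promoters, is not among the letters of any of the windows of these genes. Orm1 and Hp have no entry in the promoter table. These matches describe letters in the windows and are not binding data.

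The genes lie on GRCm38 as follows in GENCODE M21, all protein-coding. Saa1 (chr7:46740497-46742980, minus strand) and Saa2 (chr7:46751790-46754313, plus strand) are neighbors, as are Orm1 (chr4:63344560-63348163) and Orm2 (chr4:63362449-63365878), both on the plus strand. Lcn2 is at chr2:32384633-32388252, Hp at chr8:109575128-109579172, Hamp at chr7:30942368-30944032 and Apcs at chr1:172893961-172895041, all on the minus strand. Several members have close copies, so how reads were split between them is uncertain. Saa1 and Saa2 transcripts are 94.4% identical and share 13.2% of their 50-base windows exactly, Orm1 and Orm2 are 91.0% identical and share 20.4%, and Hamp and its copy Hamp2 are 94.6% identical and share 16.6%. Counting was of uniquely aligned reads, which leaves out reads that fit both copies.

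Some libraries stood apart. In liver, SBR vehicle library 2 was below every other library of its group in 18 of 20 hepatocyte markers (Alb 8.16, the others 9.19 to 9.54 in deposited log2 TPM), and SBR vehicle library 7 had a mean of 7.35 over 11 pancreatic acinar genes where the other 7 of its group had 2.14 to 2.29. In ileum, SBR WUSTL0717 library 2 was above all other ileal libraries in 12 of the 20 hepatocyte markers, with Alb at 12.7 against 8.47 to 10.13 and Hpx at 11.35 against 5.08 to 7.39. The authors' batch correction set liver and intestine onto nearly the same mean for each gene (99.4% of genes within 1 log2 unit), so that Alb averages 9.35 in liver and 8.27 in intestine. The 8 acute phase genes differ between these means by 0.66 to 1.04. Levels are therefore compared only between groups of a tissue, and the labeled tissue could not be checked by the absence of another tissue's markers.

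In the liver, a single one of the 8 listed genes was called higher after resection. Of the 8 genes, 1 passed the test between SBR vehicle and sham vehicle (limma adjusted p under 0.05), Lcn2, where 41.9% of all 15901 genes tested passed. The median difference of the 8 genes was 0.28 on the log2 scale, beside 0.25 for all genes, so that each difference of a gene includes a common shift of about that size. Between SBR WUSTL0717 and SBR vehicle none of the 8 passed where 4.1% of all genes did (1 of the 8 had an unadjusted p under 0.05, and the unmoderated two-sample test called 0 of all genes), with medians of 0.30 and 0.02. Between SBR WUSTL0717 and sham vehicle 2 of the 8 passed, Lcn2 and Hamp, where 28.8% of all genes did, with medians of 0.38 and 0.27. The 2 comparisons with the SBR vehicle group share its 8 libraries, and the 2 with the sham group share its 5, so they are not independent of each other.

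**Figure D1:**
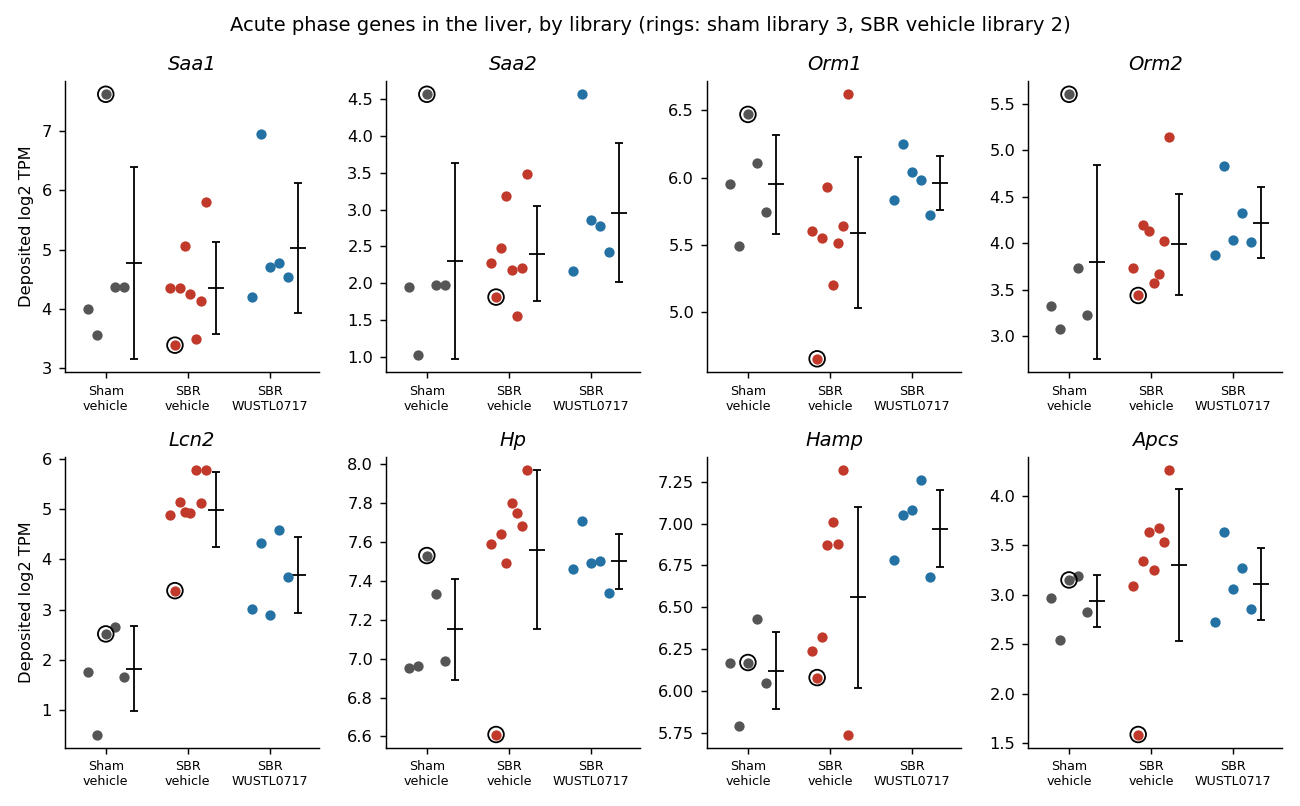
Deposited log2 TPM of the 8 acute phase genes in each liver library (dots), with the mean and SD of each group beside them, for 5 sham vehicle, 8 SBR vehicle and 5 SBR WUSTL0717 libraries. The y axes differ between panels and do not start at 0, and rings mark sham library 3 and SBR vehicle library 2. All 8 SBR vehicle libraries lie above all sham libraries in Lcn2 (3.38 to 5.78 against 0.52 to 2.66), and sham library 3 lies far above its group in Saa1, Saa2 and Orm2.

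**Figure D2:**
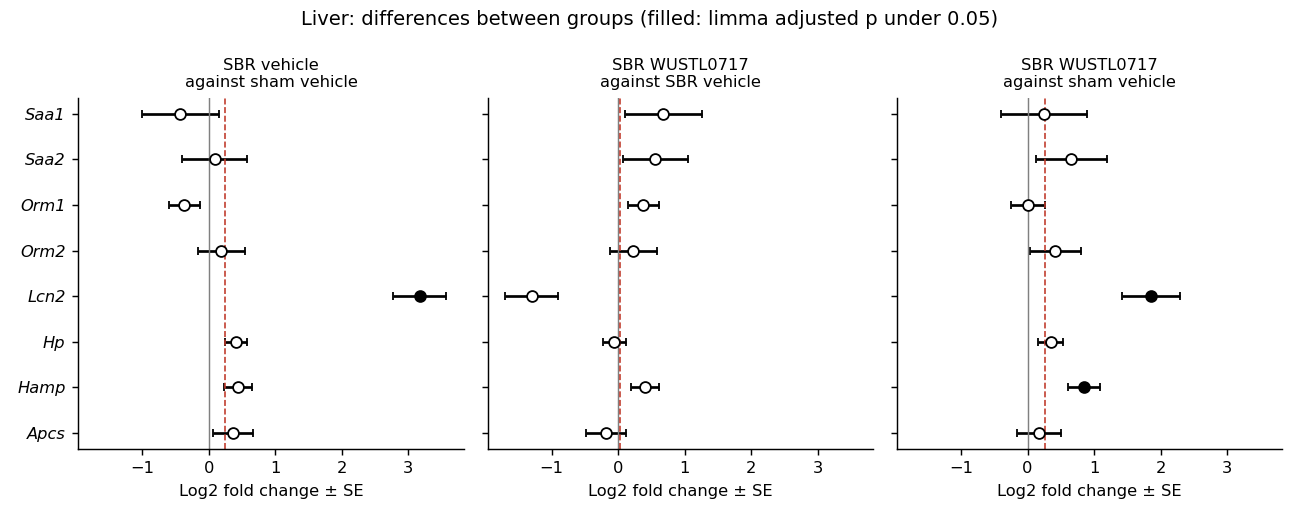
Log2 fold change and standard error of each acute phase gene in 3 liver comparisons, from limma on deposited log2 TPM. Filled circles have an adjusted p under 0.05 and the dashed line is the median of all 15901 genes tested (0.25, 0.02 and 0.27). Lcn2 is filled in the left and right panels (3.17 and 1.86), Hamp in the right panel (0.85), and every other circle is open.

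The serum amyloid A genes spread widely within groups and did not separate them. In sham livers, Saa1 was at 4.00, 3.56, 7.62, 4.37 and 4.37 in libraries 1 to 5, so that library 3 stood more than 3 log2 units above the rest. In SBR vehicle livers it ran from 3.39 to 5.80 with a median of 4.30, and in SBR WUSTL0717 livers it was at 4.20, 6.95, 4.70, 4.77 and 4.54. The 3 groups overlapped, and the highest library of the set was a sham library. The means were 4.78 ± 1.62 (SD, n = 5) in sham, 4.35 ± 0.78 (n = 8) in SBR vehicle and 5.03 ± 1.09 (n = 5) in SBR WUSTL0717. SBR vehicle differed from sham by -0.43 (SE 0.58, limma adjusted p = 0.582), less than the spread within sham. SBR WUSTL0717 differed from SBR vehicle by 0.68 (SE 0.58, adjusted p = 0.633). Without sham library 3 the difference of SBR vehicle from sham was 0.28 (adjusted p = 0.643), so its direction rests on that library, and without SBR WUSTL0717 library 2 the drug difference was 0.20.

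Saa2, the neighboring and nearly identical gene, had the same 2 libraries at its top. Its values were 1.95, 1.02, 4.57, 1.98 and 1.98 in sham livers, 1.55 to 3.48 (median 2.24) in SBR vehicle livers, and 2.17, 4.57, 2.86, 2.78 and 2.43 in SBR WUSTL0717 livers. Sham library 3 and SBR WUSTL0717 library 2 again stood above all others, and the groups overlapped. SBR vehicle (2.40 ± 0.65) and sham (2.30 ± 1.33) differed by 0.09 (SE 0.49, limma adjusted p = 0.893), and SBR WUSTL0717 (2.96 ± 0.94) and SBR vehicle by 0.56 (SE 0.49, adjusted p = 0.636). The drug difference was 0.16 without SBR WUSTL0717 library 2. Without sham library 3, Saa2 was 1.23 higher in SBR WUSTL0717 than in sham (adjusted p = 0.0451), where with it the difference was 0.66 (adjusted p = 0.345). In bulk liver, fewer hepatocytes and less RNA of a gene per hepatocyte cannot be told apart, and the summed hepatocyte markers ran from 11.85 to 12.28 in sham, 10.99 to 11.99 in SBR vehicle and 11.93 to 12.29 in SBR WUSTL0717 (log2 of summed TPM). Their part in the values of the acute phase genes was not tested.

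The orosomucoids overlapped between all 3 groups as well. Orm1 was at 5.95, 5.49, 6.47, 6.11 and 5.74 in sham livers, from 4.65 to 6.62 (median 5.58) in SBR vehicle livers and at 5.83, 6.25, 6.04, 5.98 and 5.72 in SBR WUSTL0717 livers. The SBR vehicle group held both the lowest value (library 2) and the highest (library 8). Its mean of 5.59 ± 0.56 was 0.37 below that of sham at 5.95 ± 0.37 (SE 0.23, limma adjusted p = 0.211) and 0.38 below that of SBR WUSTL0717 at 5.96 ± 0.20 (SE 0.23, adjusted p = 0.445). The difference from sham passed the test without SBR vehicle library 8 (-0.51, adjusted p = 0.0398) and with libraries centered on their medians (-0.67, adjusted p = 0.0113). It also passed with the replicate number as a block. In the treated mice Orm1 was 0.01 above sham (adjusted p = 0.978).

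Orm2 was at 3.33, 3.08, 5.60, 3.74 and 3.23 in sham livers, from 3.44 to 5.14 (median 3.88) in SBR vehicle livers and at 3.87, 4.83, 4.04, 4.33 and 4.01 in SBR WUSTL0717 livers. Sham library 3 was the highest of the 18, followed by SBR vehicle library 8. SBR vehicle (3.99 ± 0.54) differed from sham (3.80 ± 1.04) by 0.19 (SE 0.35, limma adjusted p = 0.684) and SBR WUSTL0717 (4.22 ± 0.38) from SBR vehicle by 0.23 (SE 0.35, adjusted p = 0.832). Centering libraries on their medians turned the first of these to -0.11. Against sham, SBR WUSTL0717 was 0.42 higher (adjusted p = 0.401), and 0.87 higher without sham library 3 (adjusted p = 0.0306).

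Lcn2 rose after resection. In sham livers it was at 1.77, 0.52, 2.52, 2.66 and 1.67, and in SBR vehicle livers it ran from 3.38 to 5.78 with a median of 5.04. All 8 SBR vehicle libraries lay above all 5 sham libraries, as was so, in one direction or the other, for 17.2% of all genes. The mean was 4.99 ± 0.75 (SD, n = 8) after SBR with vehicle and 1.83 ± 0.85 (SD, n = 5) after sham surgery, a difference of 3.17 (SE 0.40), or 8.97-fold on the deposited scale (limma adjusted p = 4.83e-06). This was 2.92 above the median of all genes. The exact two-sided permutation test gave p = 0.000777, the smallest that 8 against 5 libraries allow. It was the sole member of the 8 whose SBR vehicle and sham libraries were fully apart, and its difference was called in all 18 fits that left out a library (2.84 to 3.40) and all 7 other alternatives, from 2.22 with a pseudocount of 5 to 3.30 with library weights.

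Under WUSTL0717, Lcn2 was at 3.01, 4.32, 2.89, 4.58 and 3.66, between the sham and the SBR vehicle groups. All 5 libraries lay above all 5 sham libraries, and 2 of the 5 lay below all 8 SBR vehicle libraries. The mean of 3.69 ± 0.76 was 1.30 below that of SBR vehicle (SE 0.40, 0.405-fold), with an unadjusted p of 0.00418 from limma and an adjusted p of 0.0758, which missed the threshold. No member was fully apart in this comparison, as 1.54% of all genes were. Its exact permutation p was 0.014. Against sham it was 1.86 higher (SE 0.44, 3.64-fold, adjusted p = 0.00592; exact permutation p = 0.00794, the smallest that 5 against 5 libraries allow). Lcn2 did pass between SBR WUSTL0717 and SBR vehicle without SBR vehicle library 2 (-1.53, adjusted p = 0.0171), without SBR WUSTL0717 library 4 (-1.53, adjusted p = 0.0342), with centered libraries (-1.30, adjusted p = 0.0153), with a pseudocount of 5 (-1.08, adjusted p = 0.0401) and with library weights (-1.68, adjusted p = 0.000661). Over all libraries left out in turn its adjusted p ran from 0.0171 to 0.244.

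Some markers of other cells that make Lcn2 moved in the same livers. Of 11 neutrophil markers 3 had a row, and their summed level ran from 1.92 to 3.10 in sham, 2.51 to 4.27 in SBR vehicle and 2.49 to 4.23 in SBR WUSTL0717 livers. Csf3r (the G-CSF receptor) rose by 1.16 (adjusted p = 0.00014) and S100a9 (a calprotectin subunit) by 1.15 (adjusted p = 0.00383) between sham and SBR vehicle, and Ltf differed by -0.22 (adjusted p = 0.654). Epcam and Krt19, which mark epithelia such as bile ducts, rose by 2.68 and 2.14 (adjusted p = 1.11e-07 and 8.35e-06). No list of bile duct genes was made. Epcam is from the intestinal epithelial list, where 3 of 14 were called higher (median 0.06), and Krt19 from the mesothelial list, where 1 of 2 was. Under WUSTL0717 against vehicle, Epcam was 1.1 lower (adjusted p = 0.0167), and Krt19, at 6.97 against 7.65, was not called. The part of neutrophils and epithelia in the Lcn2 values was not tested. The 3 genes most alike to Lcn2 over the 18 liver libraries were Tspan9, Marcksl1 and Eif6 (Pearson r 0.967, 0.961 and 0.958, across libraries of 3 groups and so including the group differences).

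Haptoglobin varied little. Hp was at 6.95, 6.96, 7.53, 7.33 and 6.99 in sham livers, from 6.61 to 7.97 (median 7.66) in SBR vehicle livers and at 7.46, 7.71, 7.49, 7.50 and 7.34 in SBR WUSTL0717 livers. Of the 8 SBR vehicle libraries, 6 lay above all sham libraries and library 2 lay below all of them. The means were 7.15 ± 0.26 in sham, 7.56 ± 0.41 in SBR vehicle and 7.50 ± 0.14 in SBR WUSTL0717. SBR vehicle was 0.41 above sham (SE 0.17, unadjusted p = 0.027, limma adjusted p = 0.0613), and SBR WUSTL0717 was 0.06 below SBR vehicle (SE 0.17, adjusted p = 0.916). The first difference passed without SBR vehicle library 2 (0.55, SE 0.11, adjusted p = 0.000408) and without sham library 3 (0.51, adjusted p = 0.0327) and with library weights (0.60, adjusted p = 9.99e-05), and was 0.10 with centered libraries (adjusted p = 0.544). SBR WUSTL0717 was 0.35 above sham (adjusted p = 0.162), a difference that passed with library weights (adjusted p = 0.0163), in the compared groups alone (adjusted p = 0.0446) and without SBR vehicle library 2 (adjusted p = 0.0249), and was 0.05 with centered libraries. The genes most alike to Hp over the 18 livers were Hpx, which encodes the heme carrier hemopexin, Trf, which encodes transferrin, and Tm6sf2 (Pearson r 0.958, 0.943 and 0.936). Cd163, the macrophage receptor for haptoglobin and hemoglobin, fell by 1.20 with SBR (adjusted p = 0.000551) and rose by 0.91 under WUSTL0717 (adjusted p = 0.038).

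Hepcidin was highest in the treated livers. Hamp was at 6.17, 5.79, 6.17, 6.43 and 6.05 in sham livers and at 6.78, 7.05, 7.08, 7.26 and 6.68 in SBR WUSTL0717 livers. These groups did not overlap, which held for 28.1% of all genes and for Lcn2 as the other member. SBR vehicle livers spread over both, from 5.74 to 7.32 with a median of 6.59, and 4 of the 8 lay above all sham libraries. The mean of 6.97 ± 0.23 in SBR WUSTL0717 was 0.85 above the 6.12 ± 0.23 of sham (SE 0.24, 1.8-fold, limma adjusted p = 0.0136), higher in 5 of 5 libraries (exact permutation p = 0.00794, the smallest possible). SBR vehicle at 6.56 ± 0.54 was 0.44 above sham (SE 0.21, adjusted p = 0.107), and SBR WUSTL0717 was 0.41 above SBR vehicle (SE 0.21, adjusted p = 0.338). With libraries centered on their medians, Hamp was 0.55 higher in SBR WUSTL0717 than in sham and missed the threshold (adjusted p = 0.0551). Without SBR vehicle library 8, the lowest of its group, the difference between SBR vehicle and sham was 0.55 (adjusted p = 0.0276), and it was 0.54 with library weights (adjusted p = 0.03). The copy Hamp2 differed from sham by -0.09 in SBR vehicle and by 0.36 in SBR WUSTL0717 (adjusted p = 0.778 and 0.26; chosen after its values were seen).

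The genes that control hepcidin were counted as a list of 18, all tested. Between SBR vehicle and sham 11 rose and 1 fell (list median 0.42, all genes 0.25, of which 41.9% were called), and between SBR WUSTL0717 and sham 11 rose and none fell (0.38 against 0.27, with 28.8% of all genes called). With centered libraries these counts were 9 and 3, and 2 and 2. Id1, a target gene of BMP and SMAD signaling, rose by 2.37 with SBR (adjusted p = 4.16e-07) and was 1.83 above sham under WUSTL0717 (adjusted p = 0.000158). Smad7 and Smad5, an inhibitor and a transducer of the pathway, rose by 0.93 and 0.57 with SBR, and Tfr2, a sensor of iron-loaded transferrin, fell by 0.36 (adjusted p = 0.0133). Hjv (hemojuvelin, the BMP coreceptor) and Bmp6 (the BMP that reports iron stores) were 0.69 and 0.52 above sham in SBR WUSTL0717 livers (adjusted p = 0.00105 and 0.00995), and Bmp6 was not called with centered libraries (0.22, adjusted p = 0.215). Of 12 iron handling genes 5 rose and none fell with SBR, a share close to the 41.9% of all genes called, with Heph up by 0.82, Hmox1 (heme oxygenase) by 0.81 and Ftl1 (ferritin light chain) by 0.55, and 4 rose against sham under WUSTL0717. With centered libraries 4 iron genes rose and 5 fell with SBR. None of the 18 hepcidin control genes and none of the 12 iron genes passed between SBR WUSTL0717 and SBR vehicle, where 4.1% of all genes did. With centered libraries, which called 3133 of all 15901 genes there, 3 hepcidin control genes were higher, and 2 iron genes were higher and 1 lower.

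Serum amyloid P differed little between groups. Apcs was at 2.97, 2.54, 3.15, 3.19 and 2.83 in sham livers, from 1.59 to 4.26 (median 3.44) in SBR vehicle livers and at 2.73, 3.63, 3.06, 3.27 and 2.86 in SBR WUSTL0717 livers. SBR vehicle library 2 was the lowest and library 8 the highest of all 18. SBR vehicle (3.30 ± 0.77) was 0.36 above sham (2.94 ± 0.26; SE 0.30, limma adjusted p = 0.349), and SBR WUSTL0717 (3.11 ± 0.36) was 0.18 below SBR vehicle (SE 0.30, adjusted p = 0.841). Without SBR vehicle library 2 the difference from sham was 0.60 (SE 0.19, adjusted p = 0.0114), and with library weights it was 0.56 (adjusted p = 0.0135), and no other alternative called it.

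The other positive acute phase genes moved in both directions. Of 26 tested beside the members, 8 rose and 6 fell between sham and SBR vehicle, with a list median of -0.09 beside 0.25 for all genes, of which 41.9% were called. With centered libraries 6 rose and 12 fell. Mt1 (a metallothionein, which binds zinc) rose by 2.52 (SE 0.32, adjusted p = 5.94e-06) and Il1rn (the IL-1 receptor antagonist) by 1.52. Saa4, the constitutive serum amyloid A next to Saa1 and Saa2, fell by 1.17 (SE 0.12, adjusted p = 4.28e-07), Serpina3m by 0.97 and Crp (C-reactive protein) by 0.75. Under WUSTL0717 against vehicle 1 of the 26 passed, a share close to the 4.1% of all genes called. This was Saa4, which rose by 0.55 (SE 0.12, adjusted p = 0.0163). With centered libraries 5 rose and 4 fell, and without SBR vehicle library 2, 1 rose and 4 fell. Against sham, 5 were higher and 2 lower in SBR WUSTL0717, a share close to the 28.8% of all genes called, with Vnn1 (vanin 1) at 0.93 and Mt1 at 1.59 above sham and Saa4 at 0.62 below. Of 11 negative acute phase genes, whose products fall in inflammation, none rose and 4 fell with SBR (median -0.24), among them Igfals by 0.93, Azgp1 by 0.39 and Rbp4 (retinol binding protein) by 0.32, and Rbp4 rose by 0.41 under WUSTL0717 (adjusted p = 0.0277). With centered libraries none rose and 7 fell with SBR and 4 rose under WUSTL0717, and without SBR vehicle library 2 the SBR counts were 2 and 4.

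**Figure D3:**
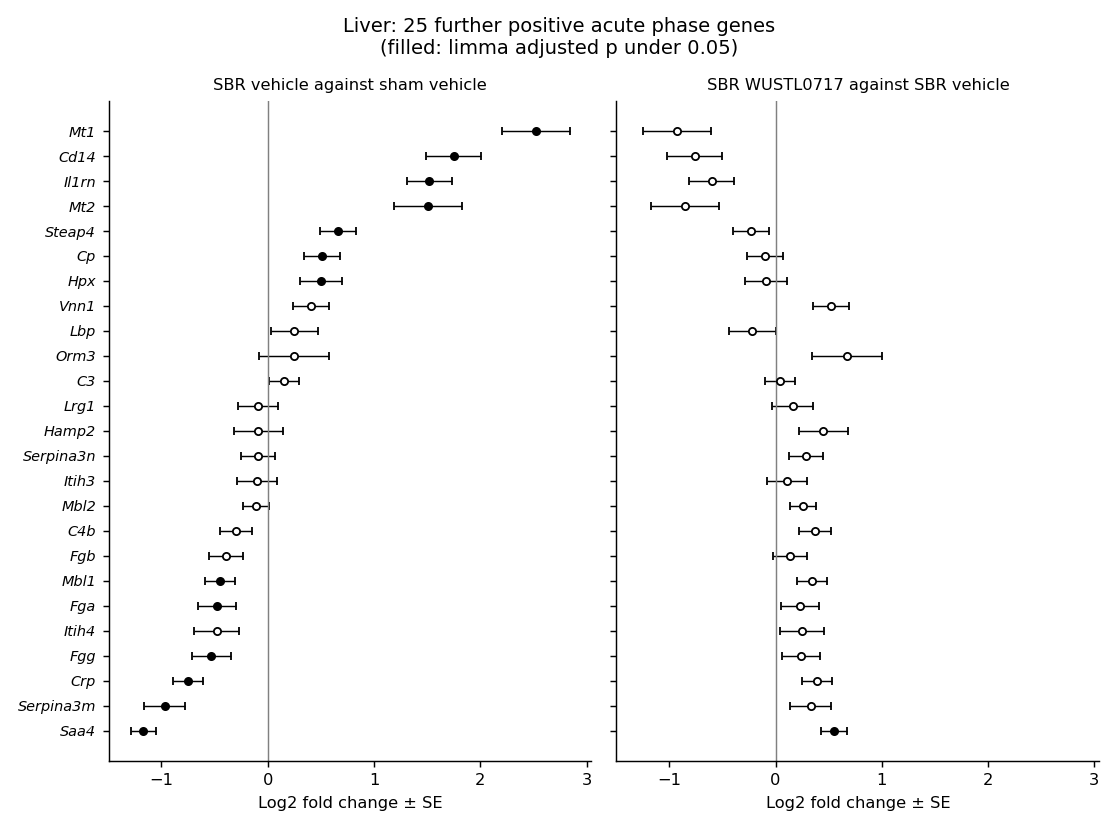
Log2 fold change and standard error of 25 of the 26 further positive acute phase genes in the liver, for SBR vehicle against sham vehicle (left) and SBR WUSTL0717 against SBR vehicle (right), from limma on deposited log2 TPM. Filled circles have an adjusted p under 0.05. On the left 7 genes lie above 0 and 6 below it as filled circles, from Mt1 at 2.52 to Saa4 at -1.17, and on the right Saa4 (0.55) is the only filled circle.

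The cytokine pathways upstream of the acute phase genes were counted in the same way. Of 19 genes of IL-1, TNF and NF-kB signaling, 13 rose and 1 fell with SBR (median 0.37 beside 0.25, with 41.9% of all genes called), or 7 and 2 with centered libraries. Relb and Nfkb2, subunits of the alternative NF-kB pathway, rose by 1.66 and 1.24 (adjusted p = 1.26e-07 and 1.74e-06), Tnfaip3 (A20, an inhibitor induced by the pathway) rose by 1.04, and Il1rap (the accessory chain of the IL-1 receptor) fell by 0.89. Of 15 genes of IL-6 and STAT3 signaling, 4 rose and 2 fell (median 0.28), a share close to the 41.9% of all genes called, or 2 and 5 with centered libraries and 9 and 2 without SBR vehicle library 2. Socs3, the feedback inhibitor that STAT3 induces, rose by 0.95 (adjusted p = 0.00121), the kinase gene Tyk2 by 0.42, and the receptor chains Il6ra and Lifr fell by 0.68 and 0.31. Between SBR WUSTL0717 and SBR vehicle, Relb fell by 0.60 (adjusted p = 0.0299), and no other gene of these 2 lists passed, where 4.1% of all genes did. With centered libraries 1 gene of the first list was higher and 4 were lower and 1 of the IL-6 list was higher, and without SBR vehicle library 2 the first list had 1 higher and 3 lower. Of 6 genes of receptors and partners of the proteins 3 rose, Tlr2 (by 1.23), Mmp9 (by 0.82) and Fcgr1 (by 0.72), and Cd163 fell. Of 10 macrophage markers 3 rose, among them Gpnmb by 2.72 and Lyz2 by 1.13, and Timd4 fell by 0.81. This share was close to the 41.9% of all genes called, with a list median of 0.03 beside 0.25. Without SBR vehicle library 2, 5 of these markers rose and 1 fell. Their summed level ran from 7.52 to 8.01 in sham, 8.01 to 9.0 in SBR vehicle and 8.33 to 8.83 in SBR WUSTL0717 livers, and its part in these counts was not tested. Among markers of other tissues, 3 of 14 intestinal epithelial genes rose with SBR (Epcam, Slc5a1 and Vil1), 1 of 2 mesothelial genes rose (Krt19), 1 of 3 adipocyte genes rose and 1 fell (Cidec and Cfd), 1 of 5 red cell genes fell (Alas2), and none of 11 pancreatic acinar genes passed. Of the 20 hepatocyte markers 2 rose and 9 fell with SBR, where 41.9% of all genes were called. Under WUSTL0717 against vehicle 1 rose, where 4.1% of all genes passed. These markers are not separate from the acute phase lists. Fga, Fgb, Fgg and Hpx are also counted as positive acute phase genes, and Alb, Ttr, Ahsg and Serpinc1 as negative ones. With centered libraries the SBR counts were 1 higher and 17 lower for hepatocyte, 3 and 8 for intestinal epithelial, 3 and 4 for macrophage, 1 and 1 for mesothelial and 0 and 1 for pancreatic genes and 3 and 3 for receptors and partners, and 11 hepatocyte markers were higher under WUSTL0717. Centering called 7825 of all 15901 genes with SBR and 3133 under WUSTL0717.

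Of the 28 pairs of acute phase genes, 19 varied together within groups. The share of all gene pairs that would pass was not computed. Libraries were not centered for these pairs, so shifts common to all genes of a library are included. With group means removed, 28 pairs were correlated over the 18 liver libraries, and 19 had an adjusted p under 0.05 for both Pearson's r and Spearman's rho, all positive (permutation within groups, two-sided, Benjamini-Hochberg over 28 pairs). The closest were Saa1 and Saa2 (r = 0.99, permutation p = 1e-05, the smallest that 100000 resamples give, adjusted p = 0.00014; rho = 0.96, adjusted p = 0.000373). Their r was 0.96 without sham library 3 and SBR WUSTL0717 library 2, and 0.97 over the 8 SBR vehicle libraries alone. Saa1 and Orm2 had r = 0.93 (rho = 0.84; permutation p = 4e-05, adjusted p = 0.000187), and 0.87 without the same 2 libraries.

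A second set of close pairs rested more on single libraries. Hp and Apcs had r = 0.89 (rho = 0.71; permutation p = 0.00028, adjusted p = 0.000871), which was 0.58 without SBR vehicle libraries 2 and 8. Orm1 and Apcs had r = 0.87 (rho = 0.78; permutation p = 0.00019, adjusted p = 0.000665) and 0.70 without the same libraries. Lcn2 and Apcs had r = 0.82 (rho = 0.81; permutation p = 9e-05, adjusted p = 0.00036) and 0.71 without SBR vehicle library 2 and sham library 2. Lcn2 was less close to the serum amyloid A genes, with r = 0.53 to Saa1 (permutation p = 0.0373, adjusted p = 0.0522) and 0.51 to Saa2 (permutation p = 0.0508, adjusted p = 0.0678). None of the 7 pairs with Hamp passed, with r between -0.09 and 0.32, and the r of Hamp with Apcs went from 0.26 to 0.70 without SBR vehicle libraries 7 and 8, and that with Hp from 0.27 to 0.45 without libraries 2 and 8.

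**Figure D4:**
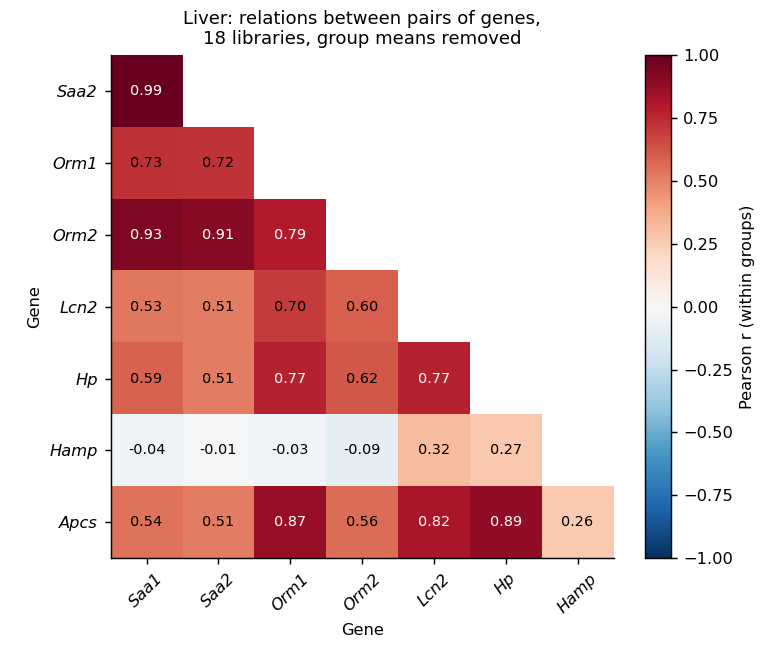
Pearson's r of each pair of acute phase genes over 18 liver libraries, after subtracting the mean of each group, with the color scale from -1 to 1. Saa1, Saa2 and Orm2 have r of 0.91 to 0.99 with each other, and the cells of Hamp lie between -0.09 and 0.32.

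Over all 18 livers, group differences included, Saa1, Saa2 and Orm2 were each other's most alike genes (r 0.891 to 0.962). For Orm1 these were Cpb2 (a carboxypeptidase that slows fibrinolysis), Prg4 and Mug2 (r 0.905, 0.902 and 0.889), and for Apcs St6gal1, Kdelr2 and Trf (0.918, 0.908 and 0.900). The third gene was Prg4 for Saa1 (0.751), Orm3 for Saa2 (0.712) and Pycr1 for Orm2 (0.764). For Hamp they were Gm45877, Acot8 and Tmub2 (0.896, 0.884 and 0.884). These coefficients describe the libraries and carry no test.

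In the duodenum no acute phase gene passed in either comparison. Of the 7 tested, none was called between SBR vehicle and sham, where 0% of 15093 genes were (limma called 0 genes, 2426 had an unadjusted p under 0.05, and the unmoderated two-sample test called 1), and none between SBR WUSTL0717 and SBR vehicle, where 0.258% were. Apcs was listed at its lowest value, 2.44, in all 11 duodenal libraries and Orm1 at 3.50 in 7 of 11, so no fold change is given for them. The medians of the other 5 were 0.30 and -0.46 beside -0.36 and 0.04 for all genes. Saa2, with a mean below the filter, was at 0.39 to 1.74 and was not tested, and Saa1 stayed low, at 0.65 to 1.77 over the 11 libraries.

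Hamp stood highest in the resected duodenum. It was at 4.38, 3.65 and 3.65 in the sham libraries, the last 2 at the lowest value it is listed at, at 4.45, 6.89, 6.14 and 5.78 in SBR vehicle and at 4.12, 5.69, 3.65 and 5.52 in SBR WUSTL0717. All 4 SBR vehicle libraries lay above all 3 sham libraries, as 9.65% of all genes did in one direction or the other, and no other member was apart. On the listed values, which for 2 of the 3 sham libraries are that lowest value, the difference was 1.92 (SE 0.64, limma adjusted p = 0.274; exact permutation p = 0.0571, where 0.0286 is the smallest that 4 against 3 allow), and it passed with library weights alone (2.29, adjusted p = 0.0287). SBR WUSTL0717 was 1.07 below SBR vehicle (SE 0.59, adjusted p = 1.0). The copy Hamp2, chosen after its values were seen, was 2.09 below sham in the same SBR vehicle libraries (SE 0.82, adjusted p = 0.281). Pancreatic acinar genes moved in the same duodena, with a summed level of 6.93 to 10.87 in sham, 4.96 to 10.4 in SBR vehicle and 7.91 to 11.14 in SBR WUSTL0717. None of the 11 tested was called, 0 were higher after SBR (median -1.62) and 11 were higher under WUSTL0717 (median 2.05), and their part in the duodenal values was not tested.

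Lcn2 spread over more than 4 log2 units in sham duodena, at 6.12, 1.41 and 2.47. It was at 2.92, 2.30, 6.05 and 3.25 in SBR vehicle and at 2.85, 1.97, 0.80 and 0.82 in SBR WUSTL0717, where 3 of 4 libraries lay below all SBR vehicle libraries. The drug difference of -2.02 (SE 1.01) had an adjusted p of 0.993 and an exact permutation p of 0.0571, and it was -1.21 without SBR vehicle library 3, the highest of its group. Here 3.15% of all genes were apart in that comparison but no member. SBR vehicle and sham differed by 0.30 (adjusted p = 0.905). The summed neutrophil markers ran from 2.65 to 3.77 in SBR vehicle and 1.78 to 2.76 in SBR WUSTL0717 duodena, neither of the 2 tested was higher or called (median -0.90), and their part in the Lcn2 values was not tested. Hp lay between 4.56 and 6.05 and Orm2 between -0.23 and 3.87 over the 11 libraries, with differences of -0.19 and -0.93 after SBR (adjusted p = 0.853 and 0.599). That of Orm2 was -0.22 without SBR vehicle library 2 and -1.58 without library 3.

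In the ileum beyond the anastomosis none of the 8 genes passed either, where 0.349% of 15772 genes did between SBR vehicle and sham and 0.0697% between SBR WUSTL0717 and SBR vehicle. The medians of the 7 members other than Apcs were 0.75 and -0.20 beside 0.07 and 0.00 for all genes. Hp was at 6.18, 4.45 and 6.60 in sham, 7.78, 7.15, 6.95 and 7.94 in SBR vehicle and 8.80, 11.08, 7.55 and 7.49 in SBR WUSTL0717. All 4 SBR vehicle libraries lay above the sham libraries, as 9.5% of all genes were apart, and Hp was the sole member so placed. The difference of 1.71 (SE 0.79) had a limma adjusted p of 0.591 and an exact permutation p of 0.0286, the smallest possible, and it was 1.07 without sham library 2, the lowest. SBR WUSTL0717 was 1.28 above SBR vehicle (SE 0.73, adjusted p = 0.834), and 0.49 above it without its library 2 (SE 0.53, adjusted p = 0.705).

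Orm1 was the ileal member apart under the drug. It was at 4.46, 4.22 and 5.06 in sham and at 5.48, 5.05, 5.92 and 4.86 in SBR vehicle. In SBR WUSTL0717 it was at 6.46, 9.93, 6.41 and 7.03, so that all 4 lay above all SBR vehicle libraries, where 3.83% of all genes were apart. The difference was 2.13 (SE 0.66, unadjusted p = 0.00705, limma adjusted p = 0.523; exact permutation p = 0.0286, the smallest possible). Library 2 of the treated ileum, which held the high hepatocyte markers, was its highest. The summed hepatocyte markers were 14.12 in that library and 11.20 to 11.85 in the other 3 of its group, beside 10.83 to 12.10 in SBR vehicle. Adipocyte markers, of which 3 of 8 had a row, also stood higher, with a summed level of 2.51 to 5.51 in sham, 5.39 to 6.05 in SBR vehicle and 6.88 to 8.04 in SBR WUSTL0717 ilea. All 3 had a positive difference in both comparisons (medians 1.67 and 1.43) and none was called. The part of either cell type in the ileal Orm1 and Hp values was not tested. Without library 2 the Orm1 difference was 1.30 (SE 0.32, adjusted p = 0.22), and the other 3 libraries, at 6.41 to 7.03, still lay above the highest SBR vehicle library at 5.92.

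**Figure D5:**
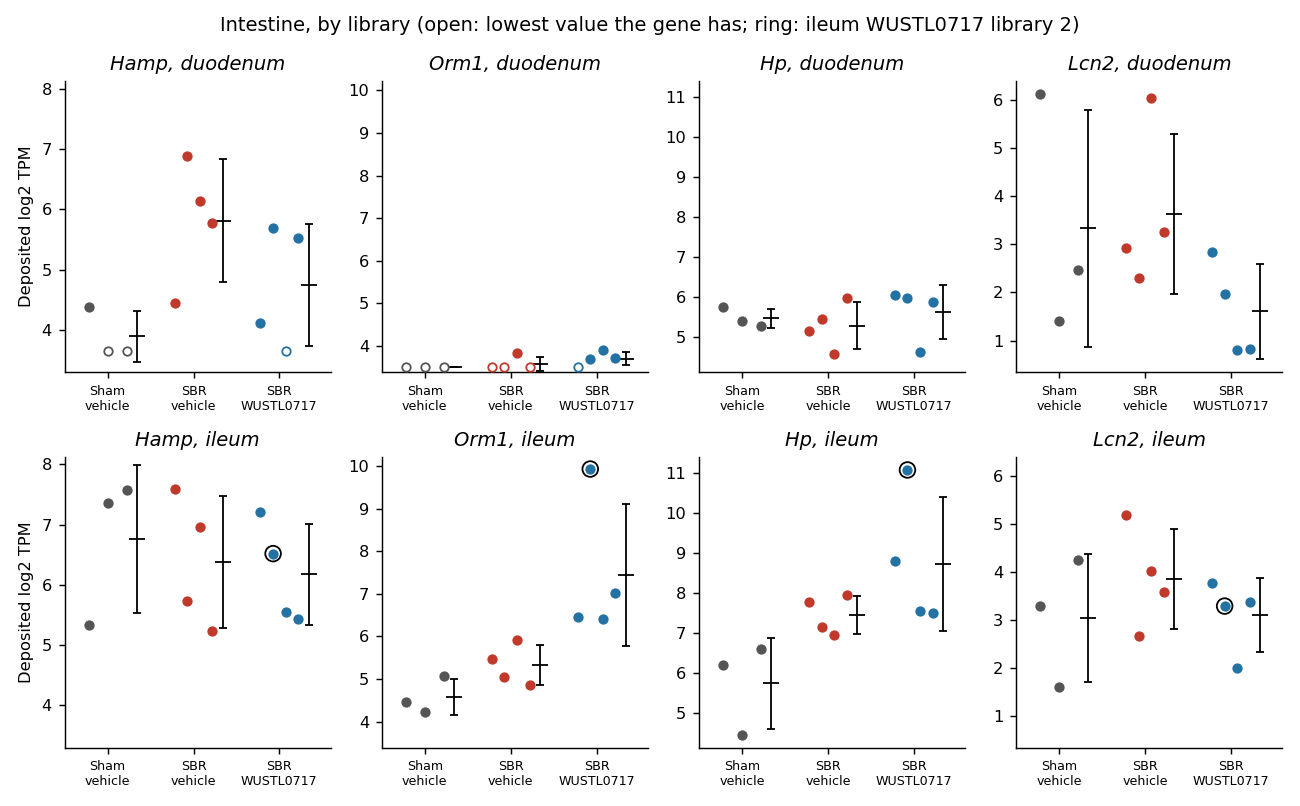
Deposited log2 TPM of Hamp, Orm1, Hp and Lcn2 in each duodenal (top) and ileal (bottom) library, with the mean and SD of each group, for 3 sham vehicle, 4 SBR vehicle and 4 SBR WUSTL0717 libraries. The y axis is shared by both regions of a gene and does not start at 0. Open circles are libraries at the lowest value a gene is listed at, and the ring marks ileum SBR WUSTL0717 library 2, at 9.93 in Orm1 and 11.08 in Hp.

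The remaining ileal members overlapped between groups in both comparisons. Saa1 was at 5.07, 5.86 and 7.29 in sham, 6.72, 7.65, 7.00 and 6.62 in SBR vehicle and 7.15, 6.09, 4.43 and 6.19 in SBR WUSTL0717. It differed by 0.93 after SBR (limma adjusted p = 0.823) and by -1.03 under WUSTL0717 (SE 0.57, adjusted p = 0.825), or -1.07 without SBR WUSTL0717 library 2 (adjusted p = 0.488) and -0.52 without its library 3, the lowest. Saa2 differed by 0.46 and -0.82 (adjusted p = 0.956 and 0.849). Lcn2 lay between 1.61 and 5.18 over the 11 libraries and differed by 0.82 and -0.76 (adjusted p = 0.892 and 0.921). Hamp lay between 5.23 and 7.59 and differed by -0.38 and -0.20 (adjusted p = 0.983 and 0.984). Orm2 differed by -0.98 after SBR (adjusted p = 0.809), or -0.21 without sham library 2. Under WUSTL0717 it differed by 0.40 (adjusted p = 0.967), or 0.07 without SBR vehicle library 2. Apcs was at 2.44 in 10 of 11 libraries and at 3.13 in SBR WUSTL0717 library 2, the library with high hepatocyte markers. Of the lists counted in liver, none held a called gene in either intestinal region except the other positive acute phase genes, of which Mbl2 (mannose-binding lectin) fell by 4.38 in the ileum with SBR (SE 0.63, adjusted p = 0.0145).

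Whether resection or drug acted differently on a gene in ileum and duodenum was tested over the 22 intestinal libraries as independent samples, since the labels do not say whether both regions came from the same mice. None of the 8 genes passed, where 0.0754% of 15923 genes did for the resection effect and 0.0251% for the drug effect. For Hamp the ileal resection effect was 2.30 below the duodenal one (SE 0.98, unadjusted p = 0.0283, limma adjusted p = 0.337), with 2 of 3 sham duodena at the gene's lowest value. For Hp it was 1.90 above (SE 0.95, adjusted p = 0.375). No such difference is given for Orm1 or Apcs, which were mostly at their lowest value in duodenum.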

How the data were processed

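The authors removed ribosomal RNA from total RNA, made libraries with random hexamers, aligned reads with STAR to mouse GRCm38 with an Ensembl annotation, counted uniquely aligned reads with featureCounts, and deposited log2 TPM after ComBat adjustment between liver and intestine. The constant added before the logarithm and the depth of each library are not given in the sources used here. Of the values, 2752 are below 0, and the deposited TPM of a library sum to 618212 to 863110. All fold changes are on this deposited log2 scale.

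Each tissue was fitted with limma 3.58.1 (trend, R 4.3.3) over its 3 groups, leaving out genes that averaged under 1 on the log2 scale there, and p-values were Benjamini-Hochberg adjusted over all genes tested (threshold 0.05). Single genes also had exact two-sided permutation tests. The fits were tested on simulated data. Relations between genes used 100000 permutations within groups over 28 pairs, since Saa3 has no row. Other tools were Python 3.11.15, numpy 2.4.6, pandas 2.3.3, scipy 1.17.1, Biopython 1.88 and matplotlib 3.10.9.

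The members and lists were chosen with earlier results of these data known. Genes were named by a rule: every member in every tissue, the 3 genes with the highest Pearson r to each member over the 18 liver libraries, and from each list at most 3 higher and 3 lower called genes with the smallest p. Not every gene the rule names is reported here, and Ltf is given as the neutrophil marker that was not called. Lists were other positive and negative acute phase genes, IL-6 and STAT3, IL-1, TNF and NF-kB, hepcidin control, iron handling, receptors and partners, and markers of hepatocytes, neutrophils, macrophages, adipocytes, mesothelium, pancreatic acini, intestinal epithelium and red cells. Alternatives were no filter, a pseudocount of 5, libraries centered on their medians, an unmoderated two-sample test, library weights, the compared groups alone, the replicate number as a block, and each library left out.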

Additional observations from a re-analysis of the deposited data

Results flagged for a closer look

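A library far from the others of its group was looked for in 53 sets, one for each gene and group of 4 to 10 libraries, and 14 were found by the size of the gap to the nearest library relative to the range. Chance flags about 1 in 20 independent sets, a rate that does not carry over to these, since the genes vary together over the same libraries and 2 of the sets had their other 3 libraries at 1 lowest value. In liver, sham library 3 was high in Saa1 (7.62, the next 4.37), Saa2 (4.57, the next 1.98) and Orm2 (5.60, the next 3.74), and SBR WUSTL0717 library 2 was high in Saa1 (6.95, the next 4.77) and Saa2 (4.57, the next 2.86). SBR vehicle library 2, which had low hepatocyte markers, was low in Lcn2 (3.38, the next 4.88), Hp (6.61, the next 7.49) and Apcs (1.59, the next 3.09), and SBR vehicle library 8 was high in Orm2 (5.14, the next 4.20).

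In the duodenum, SBR vehicle library 1 was high in Saa2 (1.74, the next 0.51), SBR vehicle library 3 in Orm1 (3.83, the others at the lowest listed value of 3.50) and SBR WUSTL0717 library 4 in Saa1 (1.56, the next 0.75), while SBR WUSTL0717 library 3 was low in Hp (4.62, the next 5.87). In the ileum, SBR WUSTL0717 library 2, with high hepatocyte markers, was the only library with Apcs above its lowest value (3.13, the others 2.44). Every treated liver was above the mean of SBR vehicle in Hamp (a mean difference of 0.41) and every treated duodenum was below it (-1.07). This was the only such pattern found in a search over all members, pairs of tissues and both comparisons. SBR vehicle livers, at 5.74 to 7.32, overlapped the treated ones, and 1 treated duodenum was at the lowest listed value. The batch correction acted on liver and intestine separately, so the 2 sizes may not share a scale. The difference between tissues was not tested.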

How the results depend on the processing

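Of 1058 alternative values for 49 results, 1003 kept their direction and side of the threshold, 1 lost a call, 21 gained one and 33 turned direction, and 34 of the results never turned. The cause of each change was not tested. Depth is unknown, so the precision of low values could not be set from counts, and genes at their lowest listed value in most libraries of a tissue are given no fold change.

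Between SBR vehicle and sham in liver, 1 acute phase gene was called, 2 with centering, 4 with library weights and 1 to 3 with a library left out (2 without sham library 3, 3 without SBR vehicle library 2 and 3 without library 8). All genes called were 6663, of which 89.3% were higher, 10462 with weights and 5399 to 9010 with a library left out. With centering 7825 were called, 41.5% of them higher. Between SBR WUSTL0717 and SBR vehicle, 1 acute phase gene was called with a pseudocount of 5, 1 with centering, 1 with weights and 0 to 1 with a library left out. All genes called were 652, 3133 with centering, 0 with the unmoderated test, 2819 with weights, 148 in the compared groups alone and 93 to 1075 with a library left out. Against sham, SBR WUSTL0717 had 2 acute phase genes called, 1 with centering, 3 with weights, 3 in the compared groups alone and 2 to 4 with a library left out, and 4580 genes, 8387 with weights, 3120 with centering and 2456 to 6727 with a library left out.

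In duodenum after SBR, weights called 1 acute phase gene, and all genes called went from 0 to 96 with centering, 1 with the unmoderated test, 2497 with weights and 0 to 589 with a library left out. For the drug, 39 became 2, 85 and 11 with the unmoderated test, weights and the compared groups alone, and 7 to 38 with a library left out. In ileum after SBR, 55 became 5, 279 and 10, and 3 to 113 with a library left out. For the drug, 11 became 1, 18 and 1, and 2 to 12 with a library left out.

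The replicate numbers showed no steady pairing of the libraries, which does not exclude one. Same-numbered libraries correlated above 0.1 in 2 of 15 pairs of groups in liver, 3 of 10 in duodenum (up to 0.33) and 1 of 10 in ileum. With the number as a block, 5587 genes and 2 acute phase genes (Lcn2 2.83, adjusted p = 0.000278, and Orm1 -0.57, adjusted p = 0.0348) were called in liver after SBR, 485 genes for the drug, 8 and 1 for the drug in duodenum and ileum, and 12 in ileum after SBR. The block turned Apcs to 0.13 and Hp to 0.08 between SBR WUSTL0717 and SBR vehicle in liver.

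Directions turned as follows. After SBR in liver, Saa2 was -0.03 with a pseudocount of 5, -0.21 with centering and -0.23 to 0.66 with a library left out, Orm2 was -0.11 with centering, and Saa1 was -0.73 to 0.28 with a library left out. Between SBR WUSTL0717 and sham, centering gave Apcs -0.13, Orm1 -0.29 and Saa1 -0.05, weights gave Orm1 -0.09, and a library left out gave Orm1 -0.10 to 0.14 and Saa1 -0.23 to 0.96. After SBR in duodenum, Hp was 0.22 with centering, 0.08 with weights and -0.42 to 0.05 with a library left out, and Lcn2 was -0.66 to 1.69. For the drug in duodenum, Hp was -0.16 with weights and Orm2 was -0.18 to 1.19 with a library left out. In ileum, a library left out gave Hamp -1.09 to 0.03 and Saa2 -0.02 to 1.03 after SBR, and Hamp -0.58 to 0.21 for the drug.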
